A study of Schizosaccharomyces pombe with 6 samples.

Results

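Poly(A)+ RNA was measured by stranded sequencing in 6 libraries of the fission yeast *Schizosaccharomyces pombe*. They were 3 biological replicates of the wild-type h- strain AS478 and 3 of the h- *siw14*∆::HygMX strain. Both strains grew vegetatively in the rich medium YES at 30 °C and were taken in log phase. *siw14* encodes an inositol pyrophosphatase, an enzyme that removes the energy-rich phosphates of the inositol pyrophosphate signaling molecules. The loci described here are all rows of the count table whose systematic name is SPNCRNA followed by a number of 600 or less. They were chosen by this number alone and without any measured value. There are 458 of them among the 6988 loci of the table, beside 1069 SPNCRNA loci with higher numbers and 5107 protein-coding genes.

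A noncoding RNA acts, where it acts at all, as RNA and not through a protein. Some fission yeast noncoding RNAs are the cores of enzymes and particles that every cell needs, such as telomerase, RNase P, RNase MRP and the signal recognition particle. Others are long noncoding RNAs (lncRNAs) made next to or across from coding genes, and some of these silence a neighbor when they are transcribed. Another set belongs to meiosis. In growing cells the RNA-binding protein Mmi1 recognizes such transcripts by a short hexamer and hands them to the nuclear exosome, the complex that degrades RNA from its 3′ end, so that meiotic RNAs stay low until Mei2 sequesters Mmi1. The comparison asked how the levels of these RNAs in *siw14*∆ cells differed from those in the parental strain.

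The deleted gene was checked first. *siw14* (SPBC17A3.03c) had 2014, 2414 and 2377 counts in the wild-type libraries and 13, 12 and 14 counts in the *siw14*∆ libraries, which is a log2 fold change of −7.59 (adjusted p = 7.85e-11, edgeR's quasi-likelihood test). Counts in genes ranged from 12875286 to 14583056 per library. Every pair of libraries of 1 genotype differed by more than sampling noise, with a chi-square of 8.86 to 38.3 per degree of freedom.

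Few of these loci gave a measurable poly(A)+ signal. Of the 458, 233 (50.9%) had 0 counts in all 6 libraries, 180 had some counts but too few, and 45 (9.83%) passed a minimum of 10 counts in at least 3 libraries. Among SPNCRNA loci numbered above 600, 2.71% were at 0 and 73.5% passed, and among protein-coding genes 0.959% were at 0 and 95.8% passed. A count of 0 in all 6 libraries allows up to 3 counts of 82468804, or 0.0364 per 1000000 counts, by counting error alone. This limit need not hold for loci that share their bases with another locus or lie in repeats. Their reads may not have been assigned to them. The loci with the lowest totals that passed were SPNCRNA.284 with 49 counts and SPNCRNA.205 with 51 over the 6 libraries, and the highest that did not pass were *meu19* with 70 and SPNCRNA.228 with 57. At the edge of the number range, *nc-tco1* (SPNCRNA.600) had 172 counts and SPNCRNA.601, the first locus outside, had 104. Of the 45, 33 had 10 or more counts in all 6 libraries, 1 reached that in all 3 *siw14*∆ but fewer wild-type libraries, 1 in all 3 wild-type but fewer *siw14*∆ libraries, and 10 in all 3 of neither genotype. No locus passed through the libraries of 1 genotype alone.

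**Figure D1:**
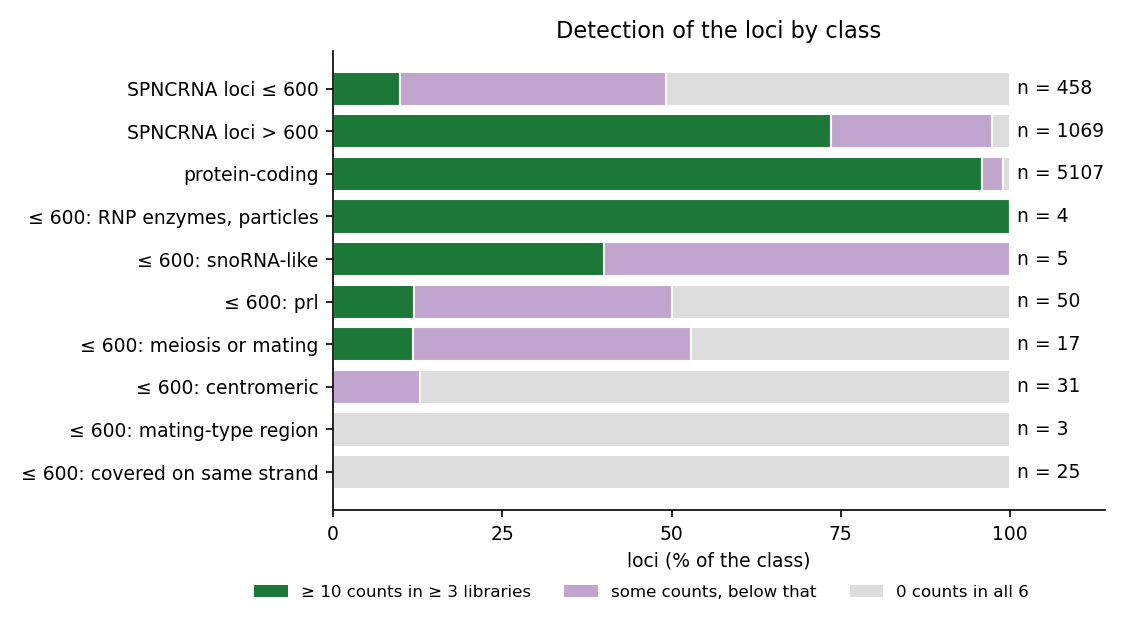
Bars show the percent of loci in each class that passed (10 or more counts in at least 3 libraries), that had some counts below this, and that had 0 counts in all 6 libraries, with the number of loci in the class at the right. Of the SPNCRNA loci numbered 600 or less, 9.83% passed against 73.5% of those with higher numbers, and none of the 31 centromeric loci did.

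Detection differed with the place of the locus in the annotation. The table's names were looked up in the RefSeq annotation of build ASM294v3, which is not the build the authors counted on, so exon borders may differ from theirs and no genome coordinates are given. Of the 458 names, 373 matched by ID, 10 matched only as an older name and 75 did not match. Of the 85 without a match by ID, 69 had 0 counts. All 25 loci whose every exon base was also exon of another locus on the same strand had 0 counts. In contrast, 9 of the 46 loci that lay wholly opposite another locus, with no base shared on their own strand, were at 0. How the authors' counting treated strand is not stated in the paper or the labels. Where such loci carried reads, reads of both strands cannot be told apart with certainty. Loci at 0 were shorter, with a median exon length of 463.5 bases against 1067 bases for those that passed, and had less G+C, with a median of 31.8% against 35.3%.

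By annotated role, the RNAs of ribonucleoprotein enzymes and particles were the best detected, with 4 of 4 passing. Of 5 loci annotated as small nucleolar RNAs, which guide the modification of other RNAs, 2 passed, namely *snoR61* (SPNCRNA.445) and SPNCRNA.498, and none was at 0. Of the 50 *prl* loci, most of them annotated as poly(A)-bearing RNAs, 6 passed and 25 were at 0. Of 17 loci annotated or named for meiosis or mating, 2 passed, *omt3* (SPNCRNA.130) and *rse1* (SPNCRNA.111), and 8 were at 0. Among those below the minimum was *sme2* (SPNCRNA.103), the meiRNA that partners Mei2 in meiosis, with 2, 7 and 8 counts in wild type and 4, 3 and 3 in *siw14*∆. SPNCRNA.584, annotated like *omt3* as a lncRNA of meiotic Smp foci, had 9, 1 and 5 counts in wild type and 2, 5 and 3 in *siw14*∆.

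The centromeric loci gave next to no counts in either strain. Centromeric lncRNAs are transcripts of the repeats that RNA interference keeps silent. Of 31 such loci, 27 had 0 counts and none passed. *nam5* (SPNCRNA.230) and *nam6* (SPNCRNA.361), named for their binding to Mmi1, were both at 0. The centromeric locus with the most counts was SPNCRNA.359, with 7, 8 and 6 counts in wild type and 14, 9 and 10 in *siw14*∆. All 3 loci annotated to the mating-type region had 0 counts. How reads that match several repeats were counted is not stated, and no locus of either class was tested for a change.

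The sequences that bear on the results come from the RefSeq genome of build ASM294v3 and were found by locus ID. The first line shows *omt3*, the single locus called lower, from 250 bases before its annotated start to 50 bases into the RNA. Capitals mark TATAAA, the sequence of a TATA box, which was searched on the transcript strand. *omt3* lies on chromosome I, plus strand.
omt3 promoter: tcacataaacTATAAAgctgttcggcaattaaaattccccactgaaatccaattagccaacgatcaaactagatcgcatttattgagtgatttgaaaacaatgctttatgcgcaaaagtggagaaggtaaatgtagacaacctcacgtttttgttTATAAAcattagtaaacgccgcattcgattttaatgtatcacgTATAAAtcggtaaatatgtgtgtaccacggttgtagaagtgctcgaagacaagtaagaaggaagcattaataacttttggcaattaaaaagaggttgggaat
The *omt3* window held TATAAA 3 times, with its first letter 240, 95 and 52 bases before the start. TATAAA was in 13 of the 41 windows of passing loci (31.7%), against 30.4% of the 6835 windows of all annotated loci.

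The hexamer bound by Mmi1, TNAAAC with N any base, was searched on the transcript strand of the annotated RNA. *omt3* held it 2 times in 1001 bases. SPNCRNA.388, on chromosome II, plus strand, held it 7 times in 1576 bases, the highest number among the 41 passing loci with an annotated RNA. Per kilobase this was 4.44, below the 5.43 of SPNCRNA.437, which held 3 in 552 bases. The stretches below show both sites of *omt3* and 3 of the 7 of SPNCRNA.388, in capitals, with positions counted from 1 at the 5′ end of the RNA.
omt3 bases 201 to 260: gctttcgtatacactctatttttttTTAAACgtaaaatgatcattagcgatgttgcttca
omt3 bases 817 to 876: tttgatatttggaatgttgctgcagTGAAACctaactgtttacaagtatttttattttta
SPNCRNA.388 bases 1009 to 1228: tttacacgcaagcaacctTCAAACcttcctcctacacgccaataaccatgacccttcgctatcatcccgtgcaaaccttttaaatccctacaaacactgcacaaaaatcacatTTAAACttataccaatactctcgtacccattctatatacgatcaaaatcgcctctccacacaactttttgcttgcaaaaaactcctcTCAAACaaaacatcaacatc
The hexamer was in 30 of the 41 passing RNAs (73.2%), in 64.6% of the 164 annotated RNAs at 0 counts and in 84.7% of all 6836 annotated loci. Per kilobase, summed over the RNAs of a set, it occurred 1.59 times in the passing loci, 2.54 times in the loci at 0 and 1.80 times in all loci. A match of letters does not show binding.

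A single locus dominated the signal in wild-type cells. *prl53* (SPNCRNA.53), a poly(A)-bearing RNA of 1852 bases on chromosome I, had 39735, 38056 and 35530 counts in wild type and 37634, 38870 and 33637 in *siw14*∆. It held 89.6% of all counts in the 458 loci. For comparison between loci, levels are given as RPKM, counts per kilobase of annotated exon and per 1000000 counts in genes, in wild type. *prl53* had an RPKM of 1473 ± 35.5 (SD, n = 3), rank 147 among the 5785 tested loci with a length. It shares 333 bases on the same strand with the coding gene *SPAC27E2.11c*, which had 2 to 6 counts in each library. All 25 loci shared over every exon base had 0 counts. Reads in shared bases may thus have gone uncounted, and the levels of both loci may be too low.

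Among the 41 passing loci with an annotated length, the next levels were far lower and belonged partly to the RNAs of known particles. The other 4 passing loci had no length and so no RPKM. Among them was SPNCRNA.01, with 1714 counts over the 6 libraries, more than any RNA named in this paragraph. *srp7* (SPNCRNA.98), the 7SL RNA of the signal recognition particle that targets proteins to the endoplasmic reticulum, had an RPKM of 46.7 ± 10.5 (SD, n = 3). *mrp1* (SPNCRNA.82), the RNA of RNase MRP, which cuts ribosomal RNA precursors, had 26.9 ± 13.0 (SD, n = 3). *ter1* (SPNCRNA.214), the telomerase RNA that carries the template for telomere repeats, had 10.1 ± 1.81 (SD, n = 3). *rrk1* (SPNCRNA.128), the RNA of RNase P, which trims the 5′ ends of tRNAs, had 7.27 ± 1.64 (SD, n = 3). These RNAs were read here only as far as they were retained by poly(A) selection.

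Among the loci of other or unknown role, SPNCRNA.388 had an RPKM of 29.2 ± 22.6 (SD, n = 3), *rse1* 15.0 ± 4.02, *snoR61* 12.3 ± 3.51, SPNCRNA.438 11.1 ± 3.80, SPNCRNA.328 10.9 ± 1.61 and *omt3* 9.60 ± 7.79. Of the 41 loci with a length, 26 were under an RPKM of 5 and 7 were under 1. The lowest was SPNCRNA.432 at 0.436 ± 0.0569 (SD, n = 3). In the order of levels, the step from *prl53* to *srp7* was the only one at which the wild-type libraries of both neighbors did not overlap. The order below *prl53* is thus not resolved from one locus to the next. The median of the 41 was 3.05, against 2.30 for SPNCRNA loci numbered above 600 and 30.0 for protein-coding genes, each over the loci that passed the minimum.

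**Figure D2:**
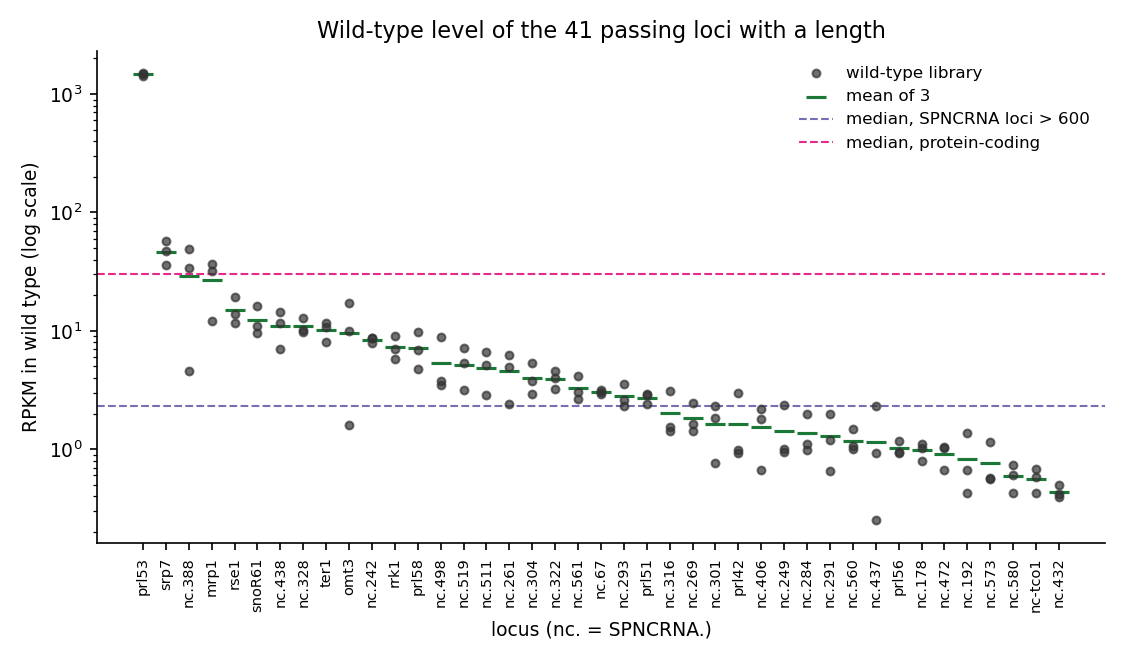
Each column is 1 of the 41 passing loci with an annotated length, ordered by mean RPKM in wild type (log scale). Points are the 3 wild-type libraries, green bars their mean, and dashed lines the medians of 2.30 for SPNCRNA loci numbered above 600 and 30.0 for protein-coding genes. *prl53* stands alone at 1473, and SPNCRNA.388 and *omt3* have 1 wild-type library far below the other two.

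Together the 458 loci held nearly the same share of counts in both strains. The share was 0.304%, 0.302% and 0.303% in the wild-type libraries and 0.318%, 0.295% and 0.292% in the *siw14*∆ libraries. The means were 0.303% ± 0.000899 and 0.302% ± 0.0138 (SD, n = 3 each), with p = 1.0 by a two-sided exact permutation test, for which 3 against 3 libraries allow no p below 0.1. Without *prl53* the means were 0.0302% and 0.0329% (exact permutation p = 0.6).

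In *siw14*∆ cells 1 of the 45 loci rose and 1 fell. SPNCRNA.291 was higher and *omt3* was lower. A locus was called at an adjusted p of at most 0.05 in the edgeR fit, with Benjamini-Hochberg adjustment over all 5794 loci tested. Of all loci tested, 16.7% were called higher and 4.99% lower. The called share of the 45 was 4.44%, beside 4.96% of SPNCRNA loci numbered above 600 and 24.8% of protein-coding genes. At an unadjusted p under 0.05 there were 3 loci, the other being *mrp1*. Of the 45 log2 fold changes 23 were positive, and their median was 0.16, beside 0.01 over all loci tested. Scaling by library totals alone moved the median of all loci to 0.18 and that of the 45 to 0.33. The study's criteria for a changed transcript, an adjusted p of at most 0.05, at least a 2-fold change and a mean of at least 100 normalized counts in the higher strain, were met by 0.311% of all loci and, among the 45, by *omt3*. A normalized count is a count divided by its library's TMM-corrected size, on the scale of an average library.

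**Figure D3:**
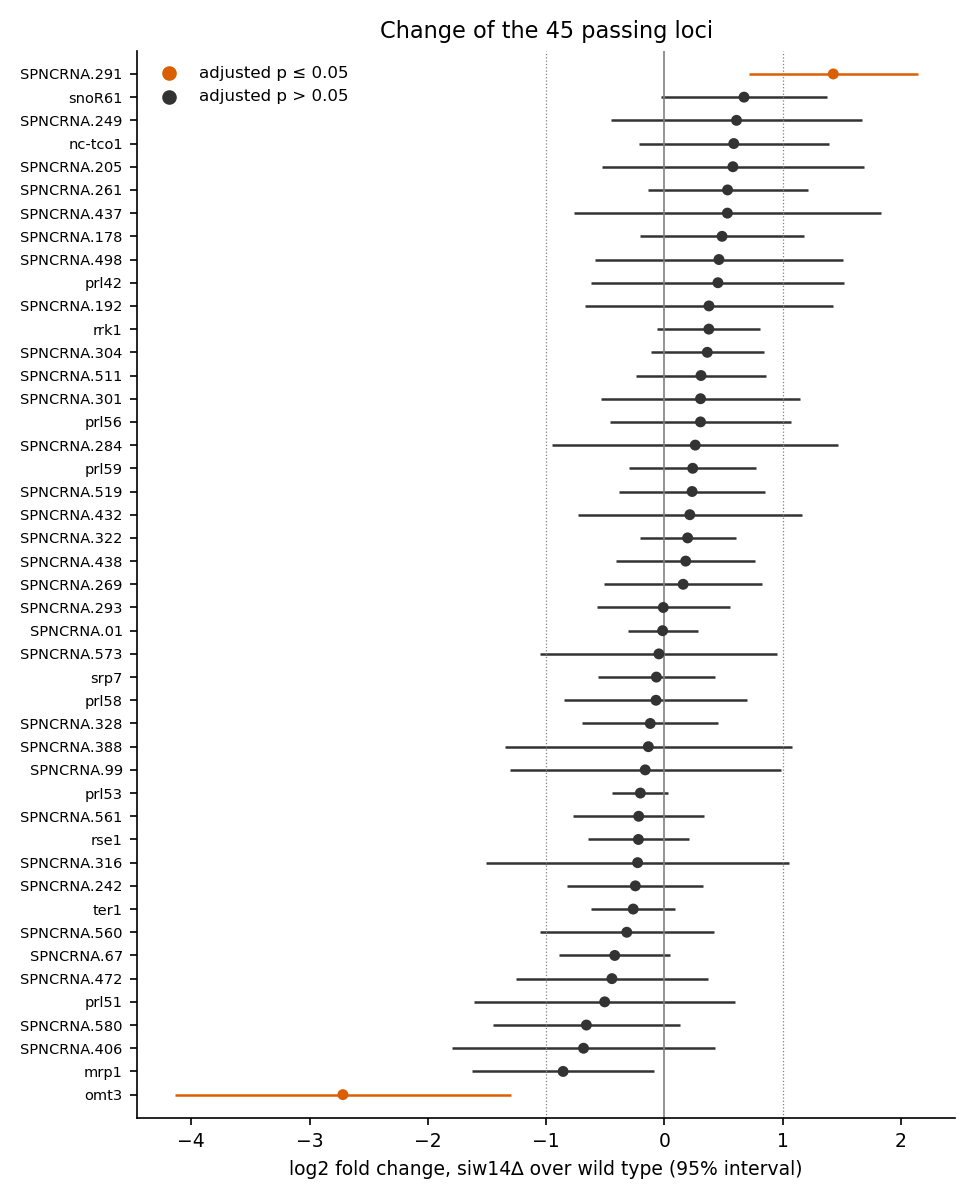
Points are the log2 fold changes of the 45 passing loci, *siw14*∆ over wild type, with 95% intervals from the edgeR fit. The loci in orange, SPNCRNA.291 at 1.43 and *omt3* at −2.72, had an adjusted p of at most 0.05, and dotted lines mark a 2-fold change in either direction.

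The RNA that fell, *omt3*, is annotated as a lncRNA of meiotic Smp foci. At such foci on meiotic chromosomes, lncRNAs and the proteins bound to them help homologous chromosomes to pair. Counts of *omt3* were 145, 22 and 230 for wild type, replicates 1 to 3, against 18, 20 and 29 for *siw14*∆. Wild-type replicates 1 and 3 were high, and replicate 2 lay among the *siw14*∆ libraries, so the genotypes overlapped. In normalized counts this was 141 ± 110 (SD, n = 3) for wild type against 21.4 ± 6.96 (SD, n = 3), a log2 fold change of −2.72 (95% interval −4.14 to −1.30, adjusted p = 0.0251 by edgeR). In bulk RNA, fewer cells with the transcript and less transcript per cell cannot be told apart. Without wild-type replicate 2 the log2 fold change was −3.21 with an adjusted p of 3.77e-04. Without wild-type replicate 1 or 3 the adjusted p was 0.0549 or 0.0624, and without *siw14*∆ replicate 1, 2 or 3 it was 0.0709, 0.105 or 0.0878.

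Of the coding genes on either side of *omt3*, *mei2* had a similar pattern over the libraries and *omt2* did not. *mei2* (SPAC27D7.03c), which encodes the RNA-binding protein that starts meiosis, is transcribed away from *omt3*, with 1044 bases between the annotated ends of the pair. SPNCRNA.993, which lies between them, had 3 to 19 counts in each library. These neighbors were looked at after the values of *omt3* had been seen. *mei2* itself had 1388, 376 and 1374 counts in wild type and 432, 383 and 356 in *siw14*∆, with wild-type replicate 2 again within the range of the *siw14*∆ libraries. Its log2 fold change was −1.59 with a standard error of 0.38 (adjusted p = 0.0250, edgeR). Without wild-type replicate 1 or 3 the adjusted p was 0.0710 or 0.0622, without *siw14*∆ replicate 1, 2 or 3 it was 0.0585, 0.105 or 0.0878, and with limma-voom it was 0.0550. In the fits without a *siw14*∆ replicate, in which calls fell over all loci tested, the log2 fold changes of *mei2* were −1.67, −1.55 and −1.58. *omt2* (SPAC27D7.04), annotated as a 4-alpha-hydroxytetrahydrobiopterin dehydratase, lies 377 bases beyond the other end of *omt3*. It had 76, 116 and 126 counts in wild type and 154, 181 and 148 in *siw14*∆, with replicate 1 the lowest in wild type, and a log2 fold change of 0.45 (adjusted p = 0.112, edgeR). The stretch from 170 to 121 bases before the annotated start of *mei2*, on chromosome I, minus strand, holds 2 copies of TTCTTTGTT, the core of the box bound by the mating regulator Ste11, shown in capitals.
mei2 upstream: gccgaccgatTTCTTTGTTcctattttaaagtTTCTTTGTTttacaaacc
The *omt3* window printed above held no copy on either strand. TTCTTTGTT or its reverse complement was in 2 of the 41 windows of passing loci (4.88%) and in 2.00% of the windows of all annotated loci.

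*rse1* is annotated as a lincRNA that represses *ste11* in cis, and *ste11* encodes the transcription factor that turns on mating and *mei2*. The *rse1* locus had 761, 601 and 983 counts in wild type and 946, 612 and 692 in *siw14*∆, and the genotypes overlapped. Its log2 fold change was −0.22 (95% interval −0.64 to 0.20, adjusted p = 0.412 by edgeR), so a change of 2-fold lay outside the interval. *ste11*, 1269 bases beyond *rse1* and also chosen after values had been seen, had 1119, 567 and 997 counts in wild type and 563, 635 and 521 in *siw14*∆. Wild-type replicate 2 had 584 normalized counts, beside 518 to 578 in the *siw14*∆ libraries, and the log2 fold change was −0.81 with a standard error of 0.22 (adjusted p = 0.0313, edgeR). Without any 1 of the libraries other than wild-type replicate 2 the adjusted p was 0.0800 to 0.105, and scaled by library totals it was 0.0593. Calls over all loci tested also fell in each of these fits with 1 library left out.

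The RNA that rose, SPNCRNA.291, has no annotated function. It is a single-exon RNA of 1364 bases and overlaps no coding gene. Its counts were 13, 37 and 22 for wild type, replicates 1 to 3, against 83, 67 and 66 for *siw14*∆. Every *siw14*∆ library was above every wild-type library, and all 6 counts were low. In normalized counts this was 25.1 ± 12.1 (SD, n = 3) for wild type against 68.1 ± 7.76 (SD, n = 3), a log2 fold change of 1.43 (95% interval 0.71 to 2.14, adjusted p = 0.0237 by edgeR). Without *siw14*∆ replicate 1, 2 or 3 the adjusted p was 0.0600, 0.105 or 0.0878. The nearest coding gene, *SPBC359.01*, an amino acid permease 135 bases away, was at −0.26 on the log2 scale, with a standard error of 0.10 (adjusted p = 0.0759, edgeR).

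**Figure D4:**
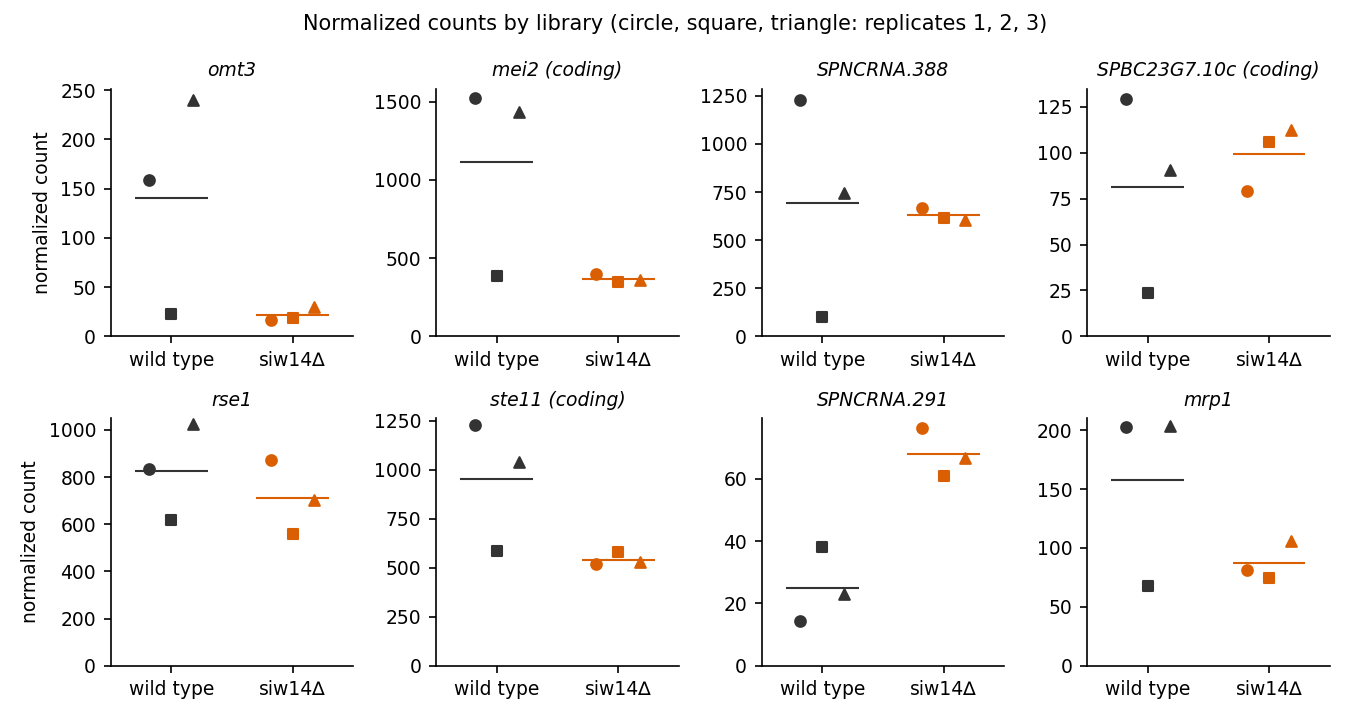
Normalized counts are plotted by library for 5 of the noncoding loci and for the coding genes *mei2*, *ste11* and *SPBC23G7.10c* that lie beside 3 of them, with circles, squares and triangles for replicates 1, 2 and 3 and a line for the mean. In *omt3*, *mei2*, *ste11*, *mrp1* and SPNCRNA.388 the square of wild type, replicate 2, lies well below the other wild-type points.

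Wild-type replicate 2 also stood apart in SPNCRNA.388 and *mrp1*. SPNCRNA.388, of no annotated function, had 1121, 99 and 714 counts in wild type and 726, 675 and 596 in *siw14*∆. The *siw14*∆ libraries lay between wild-type replicate 2 and the other wild-type libraries, and the log2 fold change was −0.14 (95% interval −1.35 to 1.08, adjusted p = 0.868 by edgeR). Its direction rested on the settings. Without wild-type replicate 2 the log2 fold change was −0.62 with an adjusted p of 0.0222, the only call among the 16 alternatives. It was 0.58 without wild-type replicate 1, 0.49 with limma-voom, 0.28 with the replicate block and 0.08 with library totals alone, and none of these 4 values passed the test. The annotated neighbors are *mat1-Mc*, 564 bases away and at 0 counts in all libraries, and *SPBC23G7.10c*, 978 bases away. The 0 does not show that *mat1-Mc* was silent, as how reads that match several places were counted is not stated. *SPBC23G7.10c*, chosen after values had been seen, had 118, 23 and 87 counts in wild type and 86, 116 and 111 in *siw14*∆, with replicate 2 again the lowest in wild type.

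The *mrp1* RNA had 185, 66 and 195 counts in wild type and 88, 82 and 105 in *siw14*∆. Wild-type replicates 1 and 3 were above and replicate 2 below every *siw14*∆ library. Its log2 fold change was −0.86 (95% interval −1.62 to −0.09) and did not pass, at an adjusted p of 0.0915 by edgeR. Without wild-type replicate 2 it was −1.20 with an adjusted p of 0.00481. What sets wild-type replicate 2 apart at these loci was not tested.

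None of the other RNAs of enzymes and particles passed the test. *srp7* had 210, 125 and 162 counts in wild type and 176, 153 and 200 in *siw14*∆, with a log2 fold change of −0.07 (95% interval −0.56 to 0.42). *ter1* had 159, 198 and 210 counts against 196, 189 and 143, with −0.26 (95% interval −0.62 to 0.09). *rrk1* had 75, 85 and 108 counts against 113, 141 and 133, with 0.38 (95% interval −0.06 to 0.81). The 3 intervals lie within a 2-fold change in either direction. *rrk1* shares 143 bases on the opposite strand with *pre10*, a proteasome subunit gene, which fell by 0.40 on the log2 scale, with a standard error of 0.12 (adjusted p = 0.0388, edgeR).

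Of the *prl* loci, *prl53* had a log2 fold change of −0.20 (95% interval −0.44 to 0.03, adjusted p = 0.178 by edgeR). Its TMM-normalized counts did not overlap between the genotypes. Scaled by library totals alone, its log2 fold change was −0.02 (adjusted p = 0.830 by edgeR). *prl58* stood at −0.07, *prl59* at 0.24, *prl42* at 0.45, *prl51* at −0.51 and *prl56* at 0.31, and none passed the test. Of the RNAs of the small nucleolar class, *snoR61* had 44, 48 and 69 counts in wild type and 150, 71 and 67 in *siw14*∆. Its log2 fold change was 0.67 (95% interval −0.03 to 1.37, adjusted p = 0.135 by edgeR), and *siw14*∆ replicate 1 was above all other libraries. SPNCRNA.498, a candidate snoRNA inside 2 coding genes on opposite strands, had 5 to 12 counts in wild type and 8 to 15 in *siw14*∆, with 0.46 (95% interval −0.59 to 1.51). *nc-tco1*, annotated as a translationally silent transcript of the *tco1* locus, had 17, 22 and 25 counts in wild type and 56, 30 and 22 in *siw14*∆, with 0.59 (95% interval −0.21 to 1.39).

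Normalized counts of the genotypes did not overlap for 6 of the 45 loci (13.3%), against 46.7% of all loci tested. On this scale SPNCRNA.291 and SPNCRNA.178 were higher in all *siw14*∆ libraries, and *prl53*, SPNCRNA.67, SPNCRNA.242 and SPNCRNA.580 were lower. The TMM factors behind it were 0.865 to 0.984 in wild type and 1.03 to 1.11 in *siw14*∆. In raw counts, *siw14*∆ replicate 2 was above every wild-type library at SPNCRNA.67 and at SPNCRNA.242. The latter had 38, 40 and 39 counts in wild type and 29, 44 and 37 in *siw14*∆. SPNCRNA.178 had 14, 17 and 18 counts in wild type and 32, 25 and 20 in *siw14*∆, with an adjusted p of 0.262 by edgeR. SPNCRNA.67 had 82, 84 and 79 counts against 60, 87 and 58, and an adjusted p of 0.161. SPNCRNA.67 lies over its full 1934 bases opposite *epe1*, which encodes a JmjC-domain protein that limits the spread of heterochromatin, and *epe1* stood at −0.06 (adjusted p = 0.618, edgeR).

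Some of the passing loci overlapped coding genes. Of the 45, 27 overlapped no coding gene and held both called loci. The 10 with a partner on the opposite strand only had a median log2 fold change of −0.13, and the 4 that shared bases with a coding gene on the same strand had 0.39. Over all 12 pairs on opposite strands, 4 coding partners were called higher and 1 lower, where 16.7% of all loci tested were called higher and 4.99% lower. None of the noncoding loci in these pairs was called, and with 4.44% of the 45 called a count of 0 among so few says little. SPNCRNA.580, wholly opposite *tdp1*, which encodes a DNA repair phosphodiesterase, had −0.66 (edgeR's adjusted p = 0.187) where *tdp1* had 0.94 (adjusted p = 0.0235). SPNCRNA.561, wholly opposite the kinesin gene *pkl1*, had −0.22 (edgeR's adjusted p = 0.537) where *pkl1* had 0.72 (adjusted p = 0.0446). The fold changes had the same sign in 5 of the 12 pairs. The difference between the members of a pair was not tested.

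Most of these loci were measured too coarsely for a small change to be seen. The 95% interval lay within a 2-fold change for 19 of the 45 (42.2%), against 81.5% of all loci tested, and the median half-width was 0.73 against 0.29 on the log2 scale. The coefficient of variation between replicates had a median of 27.6% in wild type and 22.1% in *siw14*∆ for the 45, and of 12.5% and 7.84% for all loci tested. The widest spread in wild type was 87.7% for SPNCRNA.437, then 81.7% for SPNCRNA.388 and 78.1% for *omt3*. When all loci were split by mean count into 5 equal parts, 36 of the 45 fell into the lowest. In that part, 86 of 1159 loci were called higher and 13 lower, the median log2 fold change was 0.20 over all loci and 0.22 over the 36, and over the next parts it was 0.41, 0.14, −0.09 and, at the highest counts, −0.22 over all loci. Fold changes thus differed with the level of a transcript across the whole table, highest in the second part, and this trend was not removed in the values given above.

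**Figure D5:**
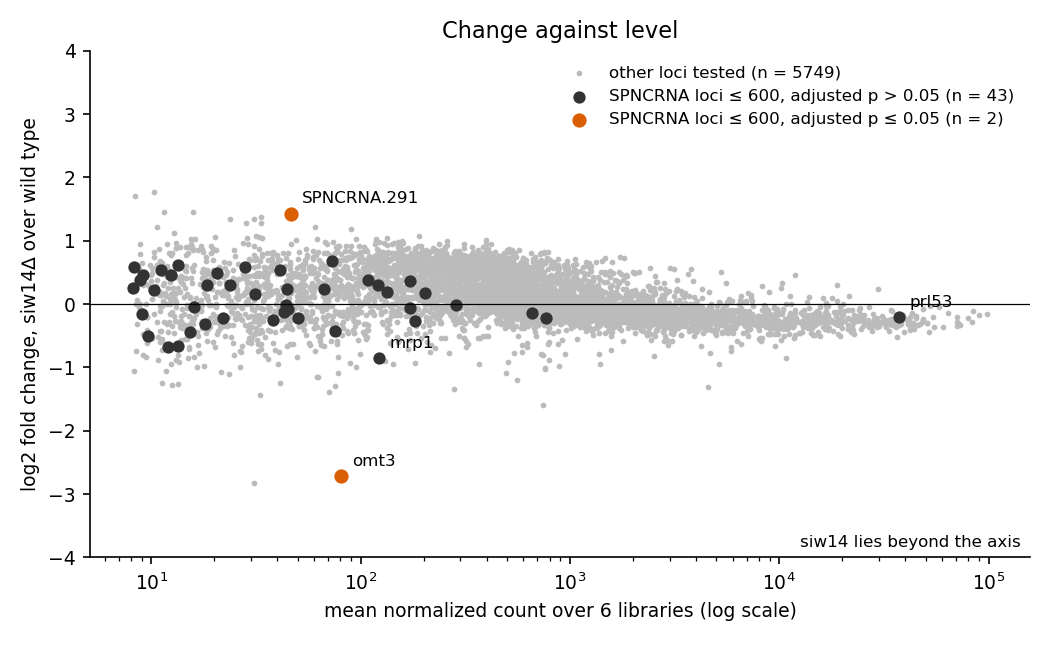
Log2 fold change, *siw14*∆ over wild type, is plotted against the mean normalized count over the 6 libraries (log scale) for the 45 passing loci in black and orange and for all other loci tested in grey. Of the 45, 36 lie in the lowest part by count, and the medians over all loci in the 5 parts, from low to high counts, are 0.20, 0.41, 0.14, −0.09 and −0.22.

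The machinery that removes such RNAs was followed through lists of known factors. Of 16 tested genes of the nuclear exosome and its helpers, 10 rose and none fell, with a median log2 fold change of 0.44. *rrp6*, the exonuclease of the nuclear form, rose by 0.82, *cid14*, the poly(A) polymerase of the TRAMP complex, by 0.61, and *csl4* and *rrp4*, subunits of the cap of the complex, by 0.56 and 0.51. Of 14 tested genes listed for Mmi1 and the MTREC complex, 6 rose and 1 fell, with a median of 0.30. The gene that fell was *mei2*, whose protein sequesters Mmi1 and so does not work with it in removing RNAs. *red5* rose by 0.63, *pir2* by 0.63 and *ctr1* by 0.90, and *mmi1* itself stood at −0.15 (adjusted p = 0.228 by edgeR). Of 16 RNA interference and heterochromatin factors, 5 rose and none fell, with a median of 0.43. Among them were *swi6*, which encodes the heterochromatin protein that binds methylated histone, at 0.57, and *arb2*, of an Argonaute complex, at 0.95. Of 9 genes of 5′ to 3′ decay and decapping, 1 rose, *lsm1* at 0.43, and none fell. For comparison, 16.7% of all loci tested were called higher and 4.99% lower. By level, 39.8% of the loci in the part with the second-lowest counts were called higher. In the middle part it was 28.0%, and in the part with the second-highest counts 7.25%. The first 3 lists had median mean counts of 691, 824 and 439, within the middle part. The list of decay and decapping had 1187, within the part with the second-highest counts. With a loess trend over abundance removed from every library, 1 of all 5794 loci passed the test, which was *siw14*, so none of these calls remained.

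Of the RNAs known to be bound or removed by Mmi1, 13 were in the table and 7 had enough counts to be tested. Of these 1 fell, *omt3*, and none rose, where 4.99% of all loci tested were called lower and 16.7% higher. That single call was lost in 7 of the 16 alternatives. The meiotic genes *ssm4* and *bgs2* stood at 0.90 (adjusted p = 0.126) and −0.11 (adjusted p = 0.344 by edgeR), and *rse1* at the −0.22 given above. The median of the 7 was −0.12, against 0.01 over all loci tested.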

How the data were processed

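Libraries from 3 wild-type and 3 *siw14*∆ cultures were read from both ends in 51 bases. The authors aligned the reads to build ASM294v2 with HISAT2 2.1.0, converted files with SAMtools and counted reads over PomBase exons with HTSeq 0.10.0. The table they deposited holds raw counts per locus and library. Lines with no gene name, 5 in number, occur only in the *siw14*∆ columns, where they make up 35.8%, 31.6% and 34.7% of the counts, and were left out. Each column named 1 library, and 0 others held per-sample values. A second deposited table holds fold changes and p-values from the authors' own DESeq2 comparison and was not used.

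Loci with at least 10 counts in at least 3 libraries (5794) were fitted in edgeR 4.0.16 under R 4.3.3 with TMM factors of 0.865 to 1.11 and its quasi-likelihood functions, and p-values were adjusted over all of them. A call needs an adjusted p of at most 0.05. The scripts were tested on simulated counts. Names, exon lengths and sequences come from RefSeq, build ASM294v3, to which 6836 of 6988 IDs matched. Alternatives used DESeq2 1.42.0, limma 3.58.1 (voom), other scalings and filters, the replicate number as a block, loess trends (span 0.3) over abundance or GC content, an adjusted p of 0.01, and each library left out in turn.

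The loci, gene lists and tests were chosen with earlier results of these data known. Named loci are *siw14*, noncoding loci with a symbol of their own, the 10 with the highest RPKM, called loci, overlapping coding partners and up to 4 genes per list by smallest p. Loci with a symbol but too few counts to test are given mostly as counts of their class. A few more are named as examples after their values were seen, among them neighboring genes, loci at the edge of a threshold and loci whose libraries did not overlap. The 95% intervals come from the edgeR fit and include the spread between replicates, while limits on counts of 0 cover counting error only.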

Additional observations from a re-analysis of the deposited data

How the results depend on the processing

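Both calls rested on the settings. At the main settings 1 of the 45 noncoding loci was called higher, 1 lower and 1 met the study's criteria. With the trend over abundance taken out, and at an adjusted p of 0.01, these counts were 0, 0 and 0. With limma-voom 0 were lower and 0 met the criteria. DESeq2 called 2 lower, adding *mrp1* (−0.89, adjusted p = 0.0251). With the trend over GC content taken out 3 were lower, adding *ter1* (−0.49) and *prl53* (−0.34). Without a minimum normalized count 2 met the criteria. Leaving out each replicate in turn gave 0 to 1 higher, 0 to 3 lower and 0 to 2 past the criteria. The lower end for loci called higher came without any 1 of the *siw14*∆ replicates, and that for loci called lower also without wild-type replicate 1 or 3. The upper ends came without wild-type replicate 2. Over all loci tested the calls fell from 1255 of 5794 to 360 of 5752, 1 of 5756 and 1 of 5764 without *siw14*∆ replicate 1, 2 or 3, rose to 1910 of 5780 without wild-type replicate 2, and fell to 1 of 5794 with the abundance trend taken out. *omt3* kept its direction in all 16 alternatives and its call in 9, between −3.21 and −2.04, with an adjusted p of 3.77e-04 to 0.105. SPNCRNA.291 kept its direction in all 16 and its call in 12, between 1.08 and 1.88, with an adjusted p of 0.00311 to 0.105. *mei2* and *ste11* were each called in 9 of 16. The 16 other named loci, none of them called, gave 254 values under the alternatives, of which 19 had the other sign and 5 passed the test. Deviations of same-numbered replicates of the genotypes had correlations of −0.25, 0.18 and −0.17. Those of differently numbered replicates ranged from −0.36 to 0.44. With 3 libraries per genotype these values cannot decide whether the numbers mark pairs. With the replicate block the counts stayed at 1 higher, 1 lower and 1 past the criteria. The share of counts in these loci and the change of *siw14* kept their verdict in every alternative run. Causes of these shifts were not tested. Low counts and a wider spread between replicates occur together at these loci, and their parts in the width of the intervals were not tested.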
